A study of Mus musculus with 8 samples.

Results

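The genes described here are Plat, Plau, Plaur, Serpine2 and Serpinf1, which encode both plasminogen activators, the receptor of one of them and a pair of serpins. They were found by symbol among probe sets that the platform annotation assigns to exactly 1 gene. Of the 5 genes, 4 had such a probe set, 6 probe sets in all of the 22690 on the array. Plat and Plaur had 1 each, Plau and Serpinf1 had 2 each, and Serpine2 (protease nexin 1, an inhibitor of thrombin and of both activators) was not analysed here, because the annotation used here lists no single-symbol probe set for it. Signals came from C2C12 myotubes, which form when cells of this mouse myoblast line fuse in low-serum medium. All cultures were grown in 10% fetal bovine serum, moved to medium with 2% horse serum, fed alike until day 4 and harvested on day 8. The 4 control arrays (A to D) are of cultures that received fresh medium every 48 h from day 4, and the 4 starved arrays (E to H) are of cultures that received none for the last 4 days. No gene was altered in either group, and the starved cells lacked fresh medium and serum rather than a single nutrient.

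Plasminogen activators are secreted serine proteases that cut plasminogen into plasmin, which dissolves fibrin and degrades extracellular matrix proteins. Tissue-type activator works mainly on fibrin, whereas urokinase acts at the cell surface, where its receptor holds it. Serpins trap such proteases by presenting a loop as bait, although some members of the family, Serpinf1 among them, have lost that inhibitory activity. In skeletal muscle this system is known for its part in regeneration and myoblast fusion.

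Within this group of genes, starved myotubes had less Plat and more Serpinf1, while Plaur differed by less than its spread and Plau was too dim to test. Plat was 2.54-fold lower and Serpinf1 1.60-fold higher. Of the 3 genes tested 1 rose, 1 fell and 1 did not pass. Over all 8352 genes tested the same test called 11.2%, with 4.25% higher and 6.94% lower. The groups did not overlap for 2 of the 3, and for 18.5% of all genes. The median difference of the 3 was -0.10 on the log2 scale against 0.01 over all genes.

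Deposited signals are linear intensities, which were not on a common brightness: the trimmed mean ran from 243 to 455 between arrays. Normalized signals below are log2 values after adding an offset of 10.9 and equalising the distribution of all arrays. Fold changes on this scale understate the change of dim genes. Errors of differences are standard errors from limma, p-values are adjusted by Benjamini and Hochberg's method across 13575 probe sets, and each group has n = 4 arrays. On the Gapdh control probe sets, control B lay at a log2 ratio of 1.40 (3' over 5') against -0.23 to -0.04 on the other 7 arrays. On the Actb control probe sets its ratio was 0.32, close to the 0.02 to 0.29 of the others. Results are therefore also given without it. All 15 skeletal myotube markers on a fixed list were bright enough to be tested, and 12 of them did not pass, Myog, Ckm and Acta1 among them. Myh8 (1.16) and Actn2 (0.58) rose and Des (-0.22) fell, and the groups did not overlap for 8 of the 15, against 18.5% of all genes. In RNA from whole cultures, fewer cells of a type and less RNA per cell cannot be told apart.

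Plat, the gene of tissue-type plasminogen activator (gene number 18791, chromosome 8, 22757722 to 22782848 in GRCm38.p6), was the member that fell. Its deposited signal was 794.8 in control A, 372.1 in B, 426.4 in C and 599 in D. The starved arrays gave 77.5 in E, 211.1 in F, 139.5 in G and 245.2 in H. Every starved array was thus below every control array before any scaling between arrays. The starved arrays tended to be dimmer throughout, with trimmed means of 243 to 366 against 317 to 455 in controls, which favours this order. After normalization the controls lay between 8.70 and 9.20 and the starved arrays between 6.89 and 8.03, so the groups stayed apart. The starved arrays were the more scattered, with an SD of 0.50 against 0.23, and starved E was the lowest. Plat fell by 1.34 ± 0.22 on the log2 scale (95% interval -1.84 to -0.85, limma adjusted p = 0.00271). Without control B the difference was -1.40 (adjusted p = 0.00378), and without starved E it was -1.13 (adjusted p = 0.00311). Over all 19 alternatives the Plat difference ran from -1.69 to -1.13 and its call was kept in each, with adjusted p-values from 0.000267 to 0.0108. Plat has a single probe set here, so no second measurement of the same mRNA stands beside it.

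Plau, the gene of urokinase-type plasminogen activator (gene number 18792, chromosome 14, 20836662 to 20843388), was dim in both groups. The brighter of its probe sets stood at the 33.4th percentile of brightness and the other at the 11.4th, below the 40th percentile above which probe sets were tested. The brighter one gave signals of 164.8 in control A, 36.4 in B, 75.1 in C and 91.6 in D. It gave 58 in starved E, 128.9 in F, 28 in G and 20.4 in H. The highest and the lowest starved array enclosed 3 of the 4 controls, so the groups overlapped widely. Its log2 difference was -0.27 with a 95% interval of -1.37 to 0.82. The other Plau probe set gave 10 to 33.6 units in controls and 6 to 24.1 units in starved arrays, a log2 difference of -0.28 with an interval of -0.91 to 0.35. The interval of the brighter probe set includes a fall as large as that of Plat, and the dimmer one lies so near the offset that its difference is compressed. These arrays do not settle whether urokinase mRNA changed. The sign of the brighter probe set rested on single arrays, since its difference was 0.07 without starved H and -0.70 without starved F.

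Plaur encodes the urokinase receptor, a membrane-anchored protein that concentrates the protease at the cell surface (gene number 18793, chromosome 7, 24460937 to 24475970). Its signal was 276.3 in control A, 161.3 in B, 225 in C and 230.1 in D. It was 117.8 in starved E, 134.9 in F, 166.4 in G and 256.8 in H. Starved H reached above all controls but A, whereas starved E and F lay below all of them. After normalization both groups ended at nearly the same upper value, with 7.59 to 7.86 in controls and 7.39 to 7.85 in starved arrays. The difference was -0.10 ± 0.14 (95% interval -0.41 to 0.22, limma adjusted p = 0.747). Without control B it was -0.13 (adjusted p = 0.684). The interval excludes a fall as large as that of Plat and a rise as large as that of Serpinf1. It did not pass in any of the 18 alternatives in which it was tested, where it ran from -0.41 in unscaled values to -0.03.

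Serpinf1 encodes pigment epithelium-derived factor, a secreted serpin without protease-inhibiting activity that is known as an inhibitor of blood vessel growth (gene number 20317, chromosome 11, 75410029 to 75422623). It was the member that rose and ranked at the 97.5th percentile of brightness. The brighter probe set gave 2914.8 units in control A, 2139.8 in B, 2652.1 in C and 2984.1 in D. It gave 2772.9 in starved E, 3062.7 in F, 3338.5 in G and 4136.9 in H. In these unscaled signals starved E fell among the controls, so the groups overlapped. After normalization they did not, with 11.10 to 11.34 in controls and 11.82 to 11.96 in starved arrays, and the scatter was small in both (SD 0.11 and 0.06). Serpinf1 rose by 0.67 ± 0.07 on the log2 scale (95% interval 0.52 to 0.83, limma adjusted p = 0.000104). Its rise rests on the scaling between arrays: in unscaled values the difference was 0.31 (adjusted p = 0.218). There the median of all tested probe sets was at -0.33, against 0.02 after normalization. With each array centred on its median the difference was 0.63 (adjusted p = 0.00190), and without control B it was 0.64 (adjusted p = 0.000215).

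The other Serpinf1 probe set moved the same way with more scatter. Its signal was 1030.9 in control A, 466.2 in B, 1179.9 in C and 1531.8 in D, and 1003.4 in starved E, 1517.1 in F, 1523.9 in G and 1714.7 in H. Control B was far below the other controls here, and was also the control array with the shifted Gapdh ratio; whether these are linked was not tested. After normalization the controls spanned 8.99 to 10.23 and the starved arrays 10.43 to 10.86, without overlap. The difference was 0.92 ± 0.24 (limma adjusted p = 0.0298), or 0.67 without control B (adjusted p = 0.0204). This call was lost without control A, starved F, starved G or starved H (adjusted p = 0.0785, 0.0871, 0.0733 and 0.0598).

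**Figure D1:**
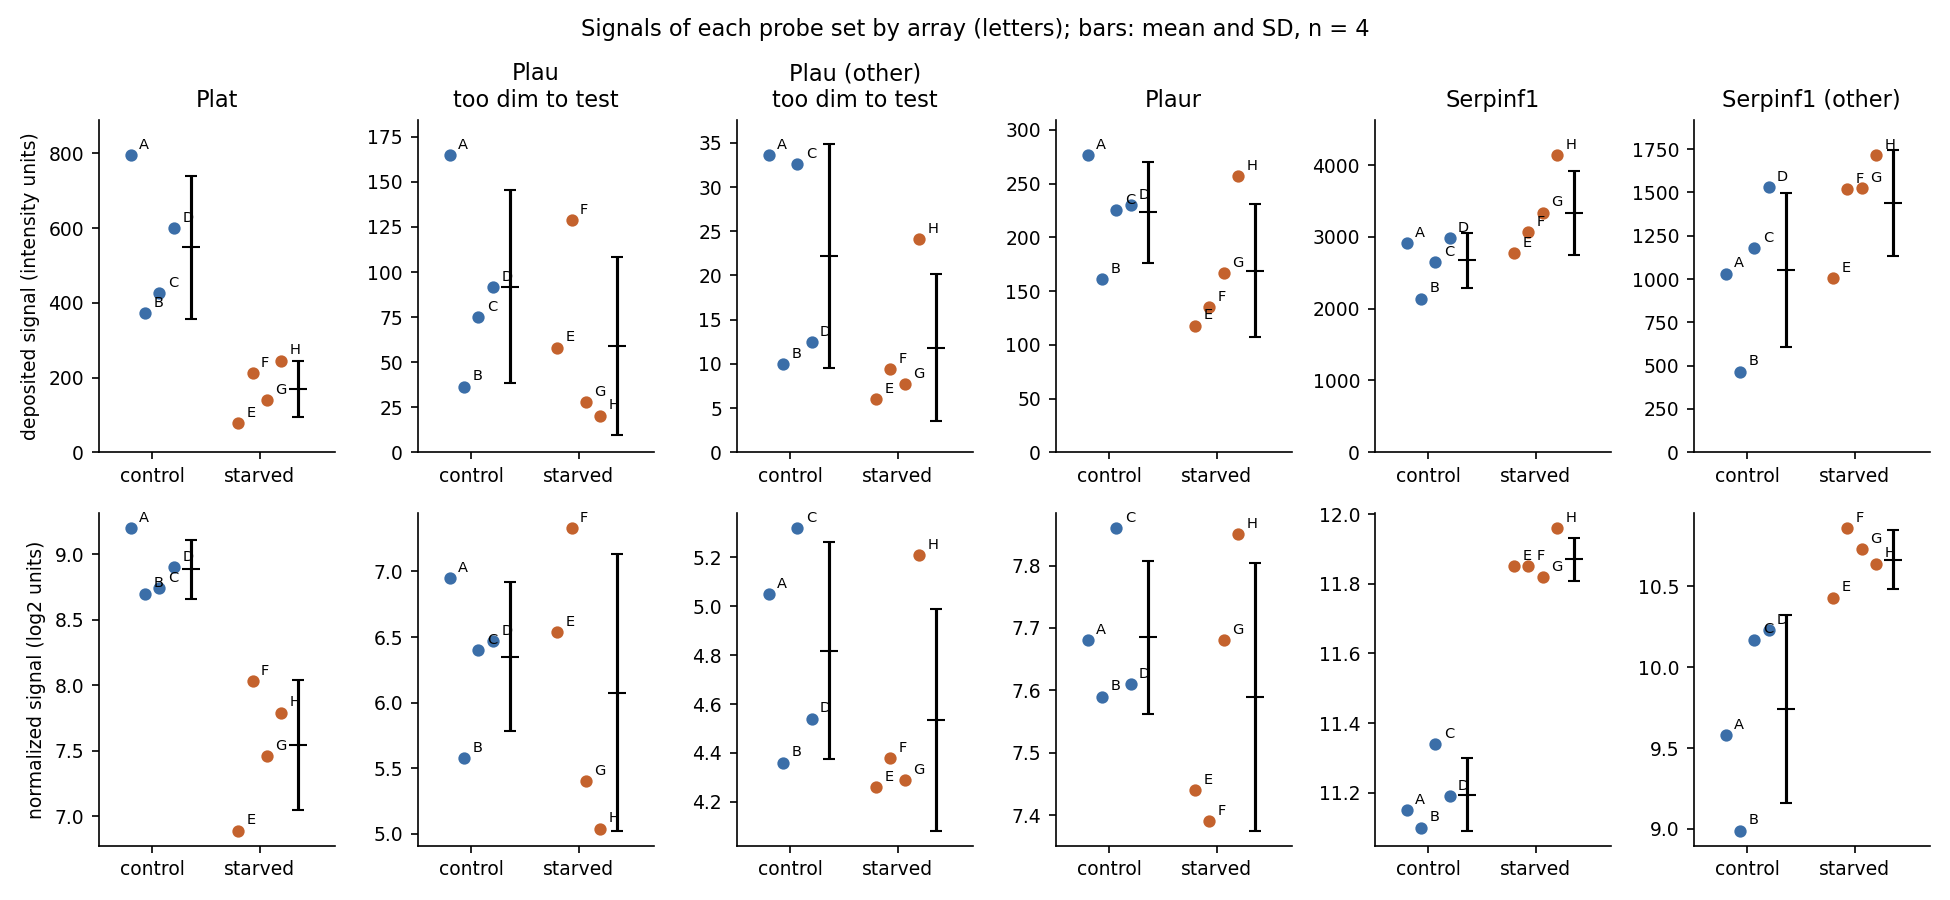
Signal of each of the 6 probe sets on every array, as deposited (upper row, intensity units, axes from 0) and after normalization (lower row, log2 units, axes not from 0), with array letters and the mean and SD of 4 arrays per group. Plat separates the groups in both rows, Serpinf1 only in the lower row, and Plau and Plaur overlap in both.

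RefSeq start regions (GRCm38.p6, 250 bases before to 50 after the start site) are shown for Plaur, which did not pass, and for Serpinf1, which rose. Capitals mark matches, on either strand, to TGANTCA, the AP-1 motif, or to TGATGNAAT, the form bound by C/EBP and ATF factors that is known as the amino acid response element. The matches do not overlap, and the motifs were chosen after the sequences had been read. The Serpine2 window held no match to either motif and is not shown. No window was available for Plat or Plau.
Plaur, chr7:24462233-24462532, plus strand: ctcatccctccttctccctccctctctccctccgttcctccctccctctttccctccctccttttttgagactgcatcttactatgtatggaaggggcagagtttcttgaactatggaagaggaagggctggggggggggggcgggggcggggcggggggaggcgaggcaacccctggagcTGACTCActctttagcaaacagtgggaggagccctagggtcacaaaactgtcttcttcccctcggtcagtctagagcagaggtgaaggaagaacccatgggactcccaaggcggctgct
Serpinf1, chr11:75422574-75422873, minus strand: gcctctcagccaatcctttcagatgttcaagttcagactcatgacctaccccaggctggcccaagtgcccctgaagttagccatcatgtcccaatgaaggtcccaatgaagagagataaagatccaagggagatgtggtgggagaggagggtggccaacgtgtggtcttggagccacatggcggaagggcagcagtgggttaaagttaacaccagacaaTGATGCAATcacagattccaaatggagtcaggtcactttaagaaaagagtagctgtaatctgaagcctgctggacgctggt
The start site of the Plaur window, at 24462483, lies 1546 bases inside the gene span given above. The Plaur window held 1 AP-1 match, TGACTCA, from 69 to 63 bases upstream of the start. The Serpinf1 window held 1 amino acid response match, TGATGCAAT, from 31 to 23 bases upstream. Of 32851 mouse promoter windows of the same length, 7.81% held TGANTCA, 0.965% held TGATGNAAT and 0.192%, or 63 windows, held TGATGCAAT. A match shows that the letters are present and says nothing of binding in these cells.

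Genes sharing the exact TGATGCAAT of Serpinf1 were then read from the same fit. Of 6775 tested genes with a window, 11 held it, and 5 of these 11 rose and 1 fell, where 4.31% of the 6775 rose and 6.61% fell. Besides Serpinf1, those that rose were the hormone gene Fgf21 (2.57 ± 0.16), the stress-induced chromatin protein gene Nupr1 (0.77 ± 0.10), and the isoleucyl- and alanyl-tRNA synthetase genes Iars (0.73 ± 0.13) and Aars (0.67 ± 0.10), with limma adjusted p-values from 2.04e-06 to 0.00350. Fbln5, an elastic fibre gene, fell by 1.37 ± 0.13 (adjusted p = 6.68e-05). Cnpy2, Arid5b, Echs1, Tac4 and Hsd17b13 did not pass, with differences from -0.64 to 0.10. Leaving Serpinf1 itself out, 4 of 10 rose, with a median of 0.06 against 0.02 for all genes with a window. The same 5 rose with median or 75th percentile centring, but in unscaled values Fgf21 alone did (0.539% of all genes rose there). The looser TGATGNAAT takes in the exact form, and was held by 33 tested genes, the 11 above included. Of these 33, 6 rose and 1 fell, and the 5 that rose and the 1 that fell above are among them. The AP-1 motif was held by 454, of which 5.51% rose and 10.4% fell. These genes were picked after the sequence had been seen, so the counts are a description and were not tested.

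**Figure D2:**
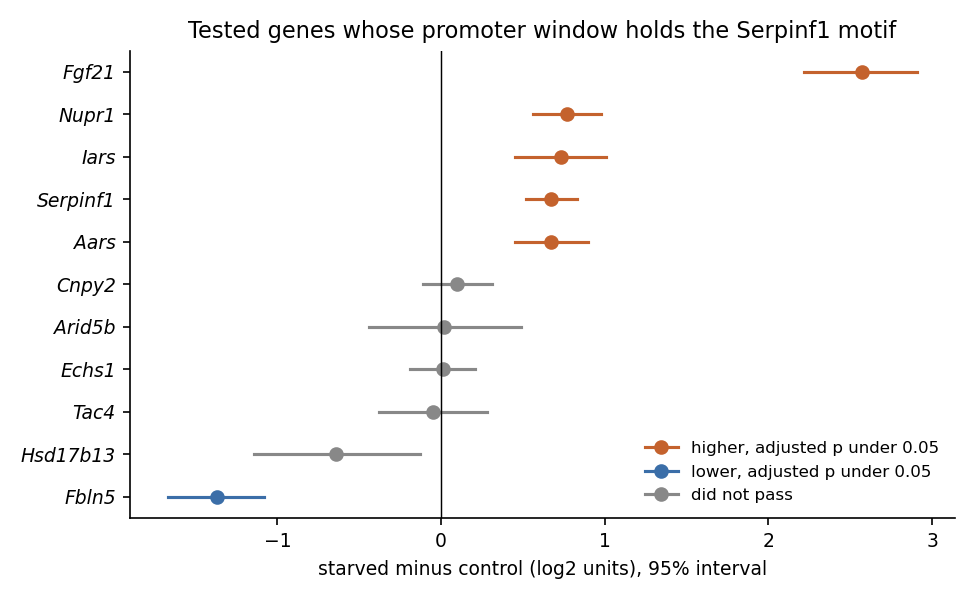
Starved minus control difference (log2 units, limma, with 95% interval) of the 11 tested genes whose start region holds the exact motif found at Serpinf1. Serpinf1 (0.67) lies next to Nupr1, Iars and Aars, Fgf21 lies highest at 2.57 and Fbln5 lowest at -1.37.

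Differences between 2 members on the same array compare their changes, and a brightness common to the array cancels in them. Plat minus Serpinf1 lay between -2.60 and -1.95 in controls and between -4.96 and -3.82 in starved arrays. The gap between Plat and Serpinf1 thus widened by 2.02 log2 units, with no overlap between the groups. Plat minus Plaur ran from 0.88 to 1.52 in controls and from -0.55 to 0.64 in starved arrays, a change of -1.25. Plaur minus Serpinf1 was tight in both groups, at -3.58 to -3.46 and at -4.46 to -4.11, a change of -0.77. Each of these 3 gave p = 0.0286 in a two-sided exact permutation test, the smallest that 70 labellings of 8 arrays allow, and 0.0572 adjusted over the 6 pairs computed, which does not pass. In unscaled values the 3 changes were -2.00, -1.28 and -0.73. That they stayed close follows from the construction, since array brightness cancels. The 3 pairs with Plau overlapped between groups (exact permutation p from 0.200 to 0.800).

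**Figure D3:**
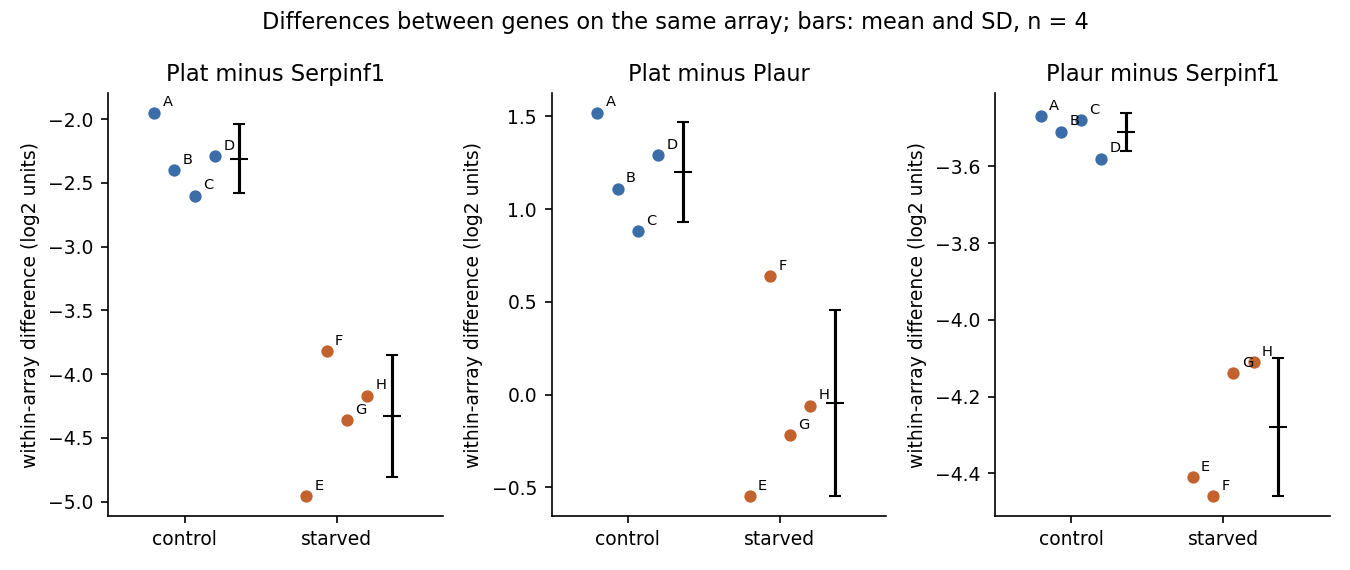
Difference in normalized log2 signal between 2 genes on the same array, for 3 pairs, with array letters and the mean and SD of 4 arrays per group. In each panel all 4 starved arrays lie below all 4 controls, and for Plat minus Serpinf1 the group means are -2.31 and -4.33.

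The other genes of plasminogen activation were read from a list of 53 that also holds inhibitors, receptors, clearance receptors and clotting factors. A named probe set was found for 47 and a tested one for 28. Of these 28 genes 3 rose, 5 fell and 20 did not pass, with a median of -0.12 against 0.01 over all genes. The groups did not overlap for 12 of the 28, and for 18.5% of all genes. Without control B the counts were again 3 and 5. The list includes Plat, Plaur and Serpinf1. The share lower is above the 6.94% of all genes and the share higher above the 4.25%, but no test of the list was made.

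Plg, the gene of plasminogen, the substrate of both activators, was too dim to test, with 22.6 to 60.7 units in controls and 13.2 to 78.9 in starved arrays. F3, which encodes tissue factor and starts clotting, lay at 2.2 to 8.4 units over all arrays. Among cell-surface docking proteins, Anxa2, whose protein binds tissue-type activator and plasminogen, fell by 0.37 ± 0.08 (limma adjusted p = 0.0143), from 12.13 to 12.28 in controls to 11.65 to 12.02 in starved arrays. That call was lost with median centring, 75th percentile centring, no intensity trend and averaging over probe sets (highest adjusted p = 0.131). Its partner S100a10 was at -0.35 ± 0.11 (adjusted p = 0.0719), and its other tested probe set passed at -0.63 (adjusted p = 0.0470). Without scaling, S100a10 also passed (-0.73, adjusted p = 0.00518). The plasminogen receptor gene Plgrkt did not pass (-0.06 ± 0.14, adjusted p = 0.850).

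Among receptors on the list, F2r, which encodes the thrombin receptor PAR1, fell by 0.82 ± 0.08 (limma adjusted p = 4.61e-05), from 10.57 to 10.76 in controls to 9.80 to 9.90 in starved arrays, and its other probe set was at -0.81 (adjusted p = 0.0741). Itgav, the integrin subunit that pairs to bind vitronectin, fell by 0.75 ± 0.09 (adjusted p = 0.000323). Averaging over probe sets ended its call (-0.33, adjusted p = 0.0840), since another tested probe set stood at 0.08. Vldlr, a receptor that takes up complexes of protease and serpin, rose by 2.05 ± 0.14 (adjusted p = 5.30e-06), from 6.91 to 7.49 in controls to 9.12 to 9.27 in starved arrays. Igf2r, which binds the urokinase receptor besides its role in lysosomal sorting, rose by 0.45 ± 0.09 (adjusted p = 0.00855), and its other probe set by 0.57. In unscaled values the Igf2r call was lost (0.05, adjusted p = 0.883). The main clearance receptor Lrp1 was at -0.27 ± 0.09 (adjusted p = 0.0917) and passed as lower without scaling (-0.64, adjusted p = 0.0207) and with array weights (-0.29, adjusted p = 0.0387). Mrc2, a collagen receptor that associates with the urokinase receptor, did not pass (-0.15, adjusted p = 0.613). The protease gene Prss23 did not pass through its brightest probe set (-0.17), while another one passed at -0.60 (adjusted p = 0.00617).

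**Figure D4:**
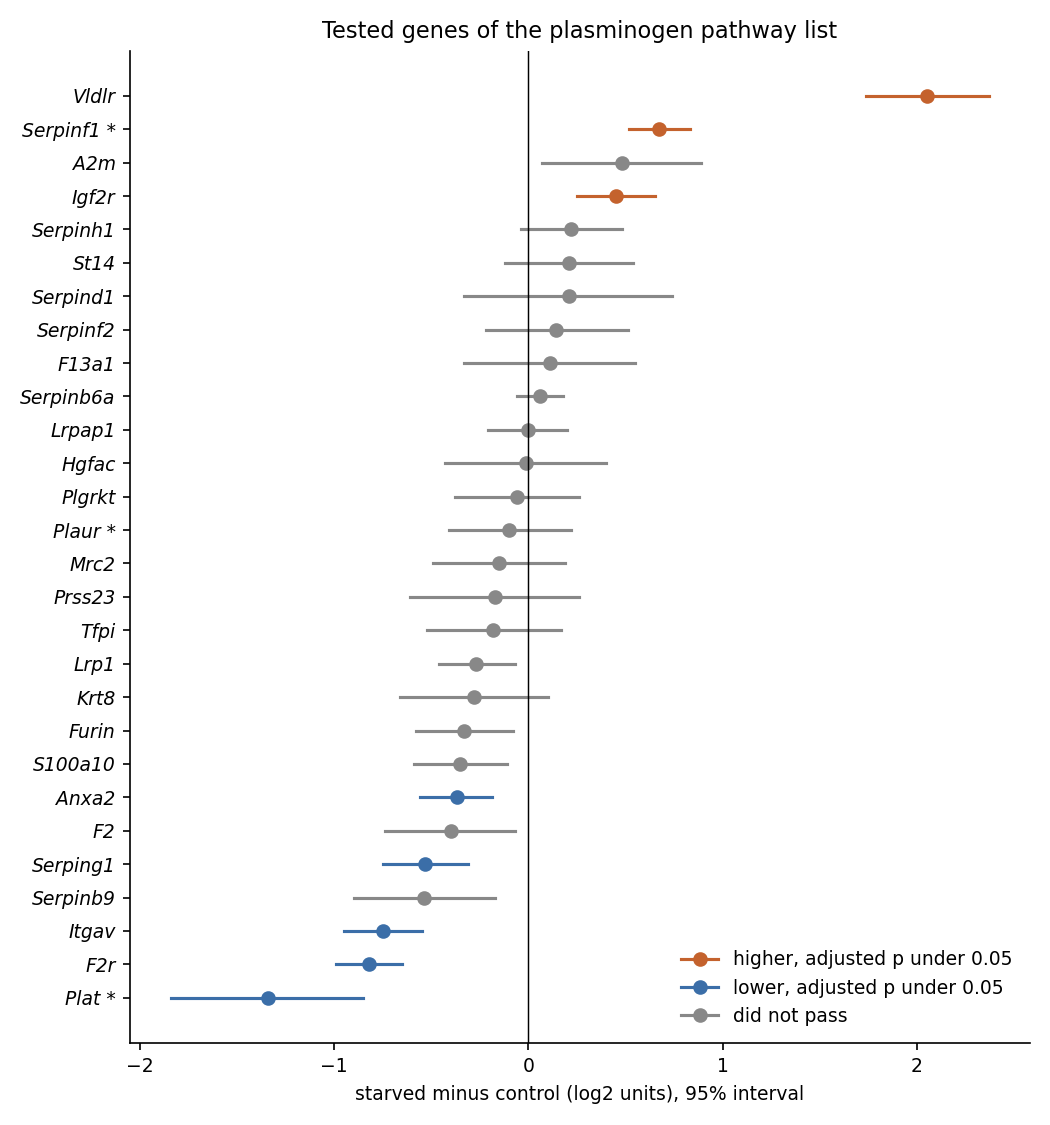
Starved minus control difference (log2 units, limma, with 95% interval) of the 28 tested genes of the plasminogen list, 1 probe set per gene, coloured by call. Asterisks mark Plat, Plaur and Serpinf1, and Vldlr (2.05) and Plat (-1.34) lie at the ends.

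By symbol 30 serpin genes had a probe set. Leaving out Serpinf1, 14 were tested, of which 1 rose, 3 fell and 10 did not pass, where 4.25% of all genes rose and 6.94% fell. Serping1, the C1 inhibitor of the complement and contact systems, fell by 0.53 ± 0.10 (limma adjusted p = 0.00551), from 8.86 to 9.03 in controls to 8.30 to 8.48 in starved arrays. Its call was kept in all 19 alternatives. Serpinh1, the collagen chaperone HSP47, was at 0.22 ± 0.12 (adjusted p = 0.302) and turned to -0.13 in unscaled values. It passed as higher when its probe sets were averaged (0.26, adjusted p = 0.0445). Serpinb6a (0.06 ± 0.05) and the plasmin inhibitor gene Serpinf2 (0.14 ± 0.16) did not pass either. The other serpins called were picked once their values were known. Serpinb9g rose by 1.39 ± 0.18 (adjusted p = 0.000438), Serpinb7 fell by 0.85 ± 0.12 and Serpinb1a fell by 0.41 ± 0.11. Serpinb9g is 1 of a cluster of related mouse genes, and whether its probe set reads its neighbours too was not tested. On their own probe sets, Serpinb9 (-0.54) and Serpinb9b (-0.12) did not pass. Serpinb9c was too dim to test (0.94 and 1.17).

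The genes nearest to each member in their course over the 8 arrays were found by the root mean square difference between profiles centred on their own mean. Because they were picked by likeness over the same arrays, a group difference close to that of the member follows from the choice. For Plat they were the growth factor gene Pdgfb (0.201 log2 units), the collagen cross-linking enzyme gene Lox (0.220) and the metalloprotease inhibitor gene Timp3 (0.260), which differed between groups by -1.36, -1.42 and -1.21. For Serpinf1 they were the LIM protein gene Fhl1 (0.076), the spermidine synthase gene Srm (0.087) and Oxnad1 (0.088), with differences of 0.54, 0.68 and 0.78. For Plaur they were Cyp2b9 (0.049), the signal transducer gene Smad2 (0.069) and the gap junction gene Gja1 (0.072), none of which passed.

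Markers of other cells and of undifferentiated myoblasts were set beside these results. Of 12 fibroblast or myofibroblast markers 11 were tested, of which 5 fell and 1 rose, against 6.94% and 4.25% of all genes. Those that fell were Acta2 (-0.30), Col1a1 (-1.15), Tagln (-2.65), Postn (-2.42) and Pdgfrb (-1.83), and Dcn rose by 0.94. Pdgfra (0.56), Lum (0.34) and Thy1 (0.20) did not pass, the first pair without overlap between groups. Col1a2 (-0.32) and Col3a1 (-0.08) did not pass either, and their groups overlapped. The list thus did not move 1 way. Its summed normalized signal, in which bright genes weigh most, was lower without overlap. It was 23319 to 25198 units in controls and 17786 to 19775 in starved arrays. The sum of the plasminogen list was also lower without overlap (31118 to 31721 against 29400 to 30529). That of the 30 serpin genes, Serpinf1 included, was higher without overlap (14838 to 15390 against 15947 to 17743). That of the skeletal myotube markers overlapped (98496 to 103396 against 97352 to 99244). The summed signal of the cycling myoblast markers was also lower without overlap, at 963 to 1167 units in controls and 689 to 883 in starved arrays. Of its 5 tested genes Cdk1 fell by 0.82 ± 0.13 (limma adjusted p = 0.00159), and Top2a was at -0.98 (adjusted p = 0.142). Ccna2 (-0.24), Pax7 (-0.10) and Mki67 (-0.04) did not pass either. The cultures came from a myoblast line, and signal of these markers does not show that fibroblasts were present. Any link of the fibroblast or cycling myoblast markers to the fall of Plat was not tested. Of the endothelial markers 2 of 7 were bright enough to test, and Pecam1, Tek, Tie1, Vwf and Emcn were not. The summed endothelial signal was 365 to 446 units in controls and 344 to 612 in starved arrays. Of the macrophage markers 4 of 7 were tested, with 888 to 1004 and 847 to 1131 units. The lowest limma adjusted p among them was 0.613 for the endothelial list and 0.194 for the macrophage list.

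**Figure D5:**
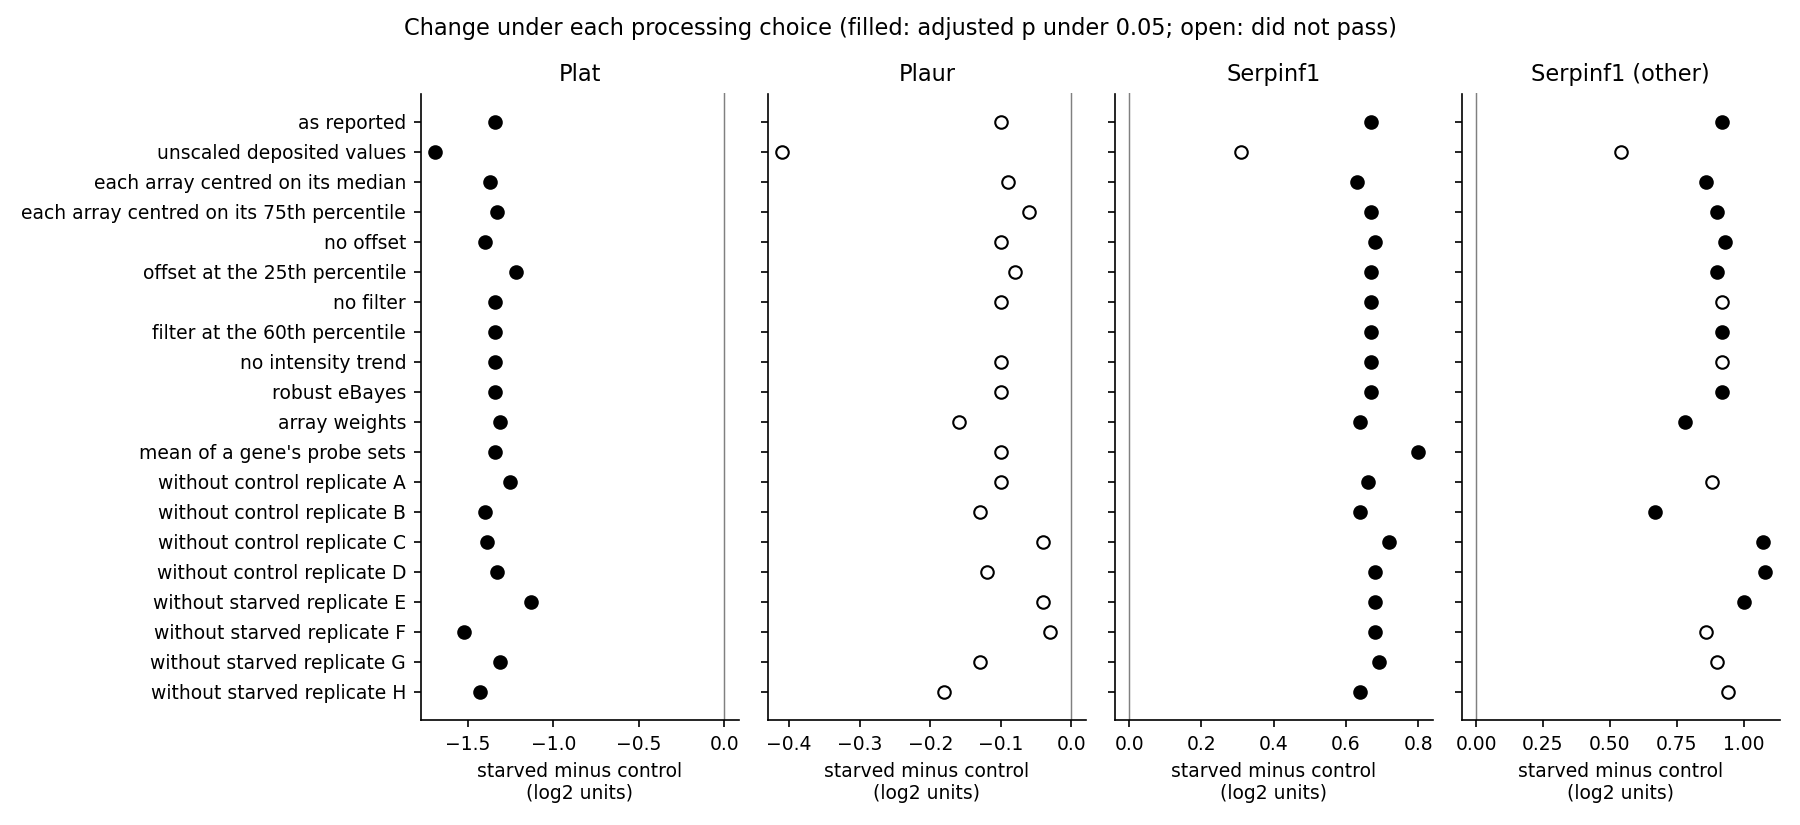
Starved minus control difference (log2 units) of the 4 tested probe sets of Plat, Plaur and Serpinf1 as reported and under each of 19 alternatives, filled where the adjusted p was under 0.05. Plat stays filled throughout, Plaur is unfilled wherever it was tested, and the brighter Serpinf1 probe set is unfilled in unscaled values only, where its difference is 0.31. The other Serpinf1 probe set is unfilled in 7 of its 18 alternatives.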

How the data were processed

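Affymetrix signals of 8 RNA samples, 4 control and 4 starved, were used as deposited: the authors' table holds 1 intensity per probe set and array on a linear scale. The steps from scan to intensity are not given in the sources used here. It has no detection calls, so brightness alone decided what was tested. Precision is limited by the number of arrays. Groups were taken from the titles. The labels do not say whether replicates were separate cultures, so the p-values rest on a spread between samples that may be only technical. No 2 arrays held identical values.

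The 64 control probe sets were left out. Before log2 an offset of 10.9 was added (the 10th percentile over all arrays), and arrays were quantile normalized, which assumes that the overall distribution did not shift between groups. Probe sets whose mean exceeded the 40th percentile (log2 6.61), 13575 in all, entered limma 3.58.1 in R 4.3.3 (lmFit, eBayes with an intensity trend), two-sided, with Benjamini-Hochberg adjustment over all of them and a threshold of 0.05. A gene was read from its brightest tested probe set with 1 symbol in the 2016 platform annotation. The gene numbers of the 4 members with a probe set match those of RefSeq, GRCm38.p6, which also supplied coordinates and start regions. Pairs of members were compared by exact permutation; 6 of 10 pairs could be computed. The filter and fit were tried on data simulated on the normalized scale, so the offset and quantile normalization were not part of that trial. Figures used matplotlib 3.10.9 in Python 3.11.15.

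Named are all members, each called gene of the pathway list, Plg, Serpinh1, Anxa2, S100a10, Lrp1, F3 and F2r whatever their call, and the 3 nearest profiles per tested member. The members, lists, rule and tests were chosen with earlier results of these data known. The motif search, the serpin family count and further probe sets or genes named were added after the values were seen. Alternatives covered scaling, offset, filter, variance model, the choice of probe set and each array left out.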

Additional observations from a re-analysis of the deposited data

Results flagged for a closer look

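Among 30 groups of 4 arrays checked, 5 held an array whose normalized log2 signal lay far from the other 3, where chance gives about 1 in 20 groups. The dimmer Plau probe set was at 5.21 in starved H against 4.26 to 4.38 in the other starved arrays. Serpinh1 was at 11.31 in control B against 11.72 to 11.76, the array whose Gapdh control ratio was shifted. S100a10 was at 10.38 in starved H against 10.64 to 10.68. Anxa2 was at 12.28 in control C against 12.13 to 12.15, and Serping1 was at 8.30 in starved G against 8.45 to 8.48. No array of Plat, Plaur or Serpinf1 stood apart in this way.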

How the results depend on the processing

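Plat, Serpinf1, Anxa2, S100a10, F2r, Itgav, Vldlr, Igf2r, Lrp1, Serping1 and Serpinh1 were recomputed under 11 other settings and with each of the 8 arrays left out. Plaur and the other Serpinf1 probe set had 18 alternatives, and Plau and the pairs 13. Other genes and probe sets named were not recomputed one by one. Plat, F2r, Vldlr and Serping1 kept their calls throughout, and Plaur passed in none of its 18. In unscaled values Serpinf1 was at 0.31 and its other probe set at 0.54, and 0 members were called higher with limma (0 also at an unadjusted limit of 0.05). There 1 gene of the pathway list was higher and 9 were lower, and over all genes 45 were higher and 1027 lower, against 355 and 580 as reported. Serpinh1 turned to -0.13 there. With median centring 219 genes were higher. The other Serpinf1 probe set, at 0.92, lost its call with no brightness filter (adjusted p = 0.0513) and with no intensity trend (0.0602). With array weights 8 genes of the pathway list were lower. Leaving out 1 array at a time, that probe set ran from 0.67 to 1.08, the pathway list had 5 to 8 genes lower (8 without starved H), and 226 to 370 genes were higher in all (226 without starved F). The difference Plau minus Plaur ran from -0.67 to 0.25 and turned positive without control A (0.03), starved G (0.08) or starved H (0.25). Without starved H the pairs of Plat with Plau, Plaur and Serpinf1 and of Plaur with Serpinf1 passed (adjusted exact permutation p = 0.0429). Plat minus Serpinf1, Plat minus Plaur and Plaur minus Serpinf1 changed there by -2.07, -1.25 and -0.82, close to their values over all arrays. They passed because Plat minus Plau also reached the smallest possible p, which loosens the adjustment. The causes of the other shifts between settings were not tested. With a filter at the 60th percentile Plaur was too dim to test. No paired analysis was possible because the replicate letters differ between the groups.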
